A study of Mus musculus with 48 samples.

Results

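Libraries with high and low messenger RNA of the immediate early genes Fos, Junb, Egr1, Arc and Nr4a1 were compared within a series of 48 mouse brain libraries. For each library the score was the mean of log2(value + 7) over these 5 genes, where the value is the normalised read count deposited for the gene. Within each of 4 groups the 3 libraries with the highest score and the 3 with the lowest were chosen, which gave 12 high and 12 low libraries of 48 and left 24 in the middle. The libraries were therefore chosen by measured values, and the labels give no treatment that sets them apart. The 5 choosing genes are described without a test, and the tests concern other genes.

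The mice came from the heterogeneous stock-collaborative cross (HS-CC), an outbred population derived from crosses of inbred strains, and had been bred for High or Low ethanol preference until selection generation 4. Each library holds poly(A) RNA from 1 sample of the nucleus accumbens shell, part of the ventral striatum, taken by laser microdissection. The groups are females of the High line, females of the Low line, and males of each of these lines, with 12 libraries in each group. The labels used here give no age, ethanol exposure, hour of death or litter. Each line is 1 selected population, and p-values measure the spread between these libraries.

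Immediate early genes are transcribed within minutes of a stimulus, without new protein synthesis, because the factors that switch them on are already present. Calcium and cyclic AMP lead through kinases to CREB, which binds the cyclic AMP response element, and through the MAP kinases to serum response factor and its partners, which bind the CArG box. Fos and Junb are subunits of the transcription factor AP-1, Egr1 and Nr4a1 are transcription factors of the zinc finger and nuclear receptor families, and Arc is a cytoskeletal protein that governs the removal of AMPA receptors from synapses. In the striatum these genes respond to dopamine and glutamate, and also to handling and stress.

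The stretches of promoter that hold matches to these elements are shown for 3 of the choosing genes and for called genes described below, so that the sites can be read beside the values. The sequences are from RefSeq on GRCm38.p6 and lie within the 250 bases before the start site. They read 5′ to 3′ on the strand of the gene, with each match in capitals. For Egr2 only the first match in the window was kept. TGACG, the short form of the cyclic AMP response element, is shown for Fos, Junb, Nr4a1, Fosb and Egr4 (CGTCA where it lies on the opposite strand), TGACGTCA, its full form, for Btg2, Dusp1 and Arl4d, and the CArG box for Egr2.
Fos (chr12:85473751-85473838, plus strand): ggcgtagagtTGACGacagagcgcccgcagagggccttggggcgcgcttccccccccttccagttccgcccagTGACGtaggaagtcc
Junb (chr8:84978840-84978864, minus strand): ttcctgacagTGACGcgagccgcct
Nr4a1 (chr15:101266603-101266820, plus strand): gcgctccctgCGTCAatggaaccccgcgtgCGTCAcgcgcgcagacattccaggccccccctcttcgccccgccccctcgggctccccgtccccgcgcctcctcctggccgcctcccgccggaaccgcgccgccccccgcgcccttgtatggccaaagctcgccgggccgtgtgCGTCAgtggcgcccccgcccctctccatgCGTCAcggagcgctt
Btg2 (chr1:134079304-134079331, minus strand): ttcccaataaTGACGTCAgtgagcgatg
Dusp1 (chr17:26508598-26508625, minus strand): gtagggcgggTGACGTCAccgcccggtc
Arl4d (chr11:101665505-101665532, plus strand): ccgcgtcgtgTGACGTCAcgagagggtt
Fosb (chr7:19310091-19310115, minus strand): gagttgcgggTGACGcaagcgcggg
Egr4 (chr6:85513684-85513776, minus strand): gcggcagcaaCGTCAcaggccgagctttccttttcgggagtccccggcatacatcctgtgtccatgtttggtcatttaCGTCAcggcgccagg
Egr2 (chr10:67537484-67537513, plus strand): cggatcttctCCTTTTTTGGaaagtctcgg

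The score ran from 8.88 to 10.68 over the 48 libraries. The sets are the ends of a continuous range. In High females the lowest score inside the high set was 10.28 and the highest outside it 10.27. In High males these were 10.07 and 10.05, in Low females both were 10.25, and in Low males they were 10.11 and 10.03. At the lower end the highest score inside the low set was 9.61 in High females, 9.42 in High males, 9.41 in Low females and 9.16 in Low males, and the nearest library outside it lay at 9.64, 9.42, 9.49 and 9.23. The plot of scores shows the 4 groups side by side.

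**Figure D1:**
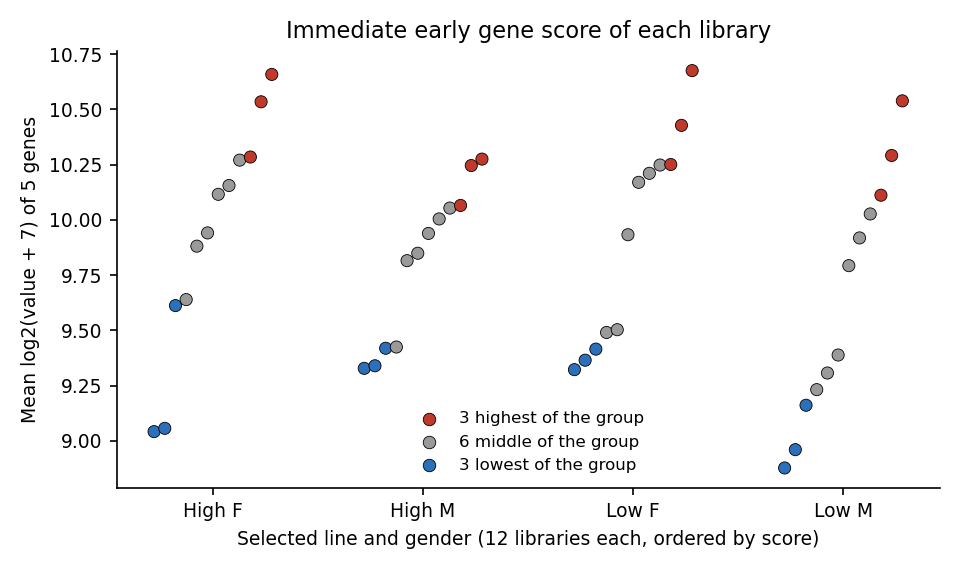
Score of each of the 48 libraries (y axis, mean log2(value + 7) of Fos, Junb, Egr1, Arc and Nr4a1), by line and gender (x axis), with the libraries of a group in order of score. Red points are the 3 highest and blue points the 3 lowest of a group. The scores run without a break from 8.88 to 10.68, and the edges of the sets lie close to the nearest grey point.

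The score was not found to differ between lines or genders. It was 9.87 ± 0.44 (SD, n = 24) in the High line and 9.78 ± 0.52 (n = 24) in the Low line, a difference of 0.10 (permutation test of the line within gender, 100000 resamples, two-sided p = 0.48, adjusted over 2 tests 0.48). It was 9.92 ± 0.49 (n = 24) in females and 9.72 ± 0.46 (n = 24) in males, a difference of 0.20 (permutation test of gender within line, p = 0.15, adjusted 0.30). The high and low sets hold the same number of libraries of each group by construction.

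The values of the choosing genes show how wide the range is. Fos ran from 288 to 550 with a median of 402 in the high libraries and from 72 to 212 with a median of 134 in the low ones. Arc ran from 970 to 2214 with a median of 1462 in the high libraries and from 428 to 748 with a median of 601.5 in the low ones. Nr4a1 ran from 1289 to 2356 in the high libraries and from 416 to 1119 in the low ones. Junb ran from 987 to 1353 against 577 to 897, and Egr1 from 2621 to 3417 against 1563 to 2439. Each of the 5 genes was higher in each high library than in any low library, which the choice of libraries favours. The log2 differences, averaged over the 4 groups, were 1.52 for Fos, 1.45 for Nr4a1, 1.34 for Arc, 0.71 for Junb and 0.60 for Egr1, so the first 3 genes carried most of the score.

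The choice of libraries was much the same when each choosing gene was left out in turn, and the values are given as a description. Without Fos the other 4 genes chose 10 of the 12 high and 10 of the 12 low libraries again, and Fos differed by 1.404 on the log2 scale between the sets so chosen. Without Egr1 both sets stayed as they were. Nr4a1, Arc and Junb differed by 1.32, 1.24 and 0.66 between sets chosen without them, which shared 10 or 11 of the 12 libraries at each end. A score over 6 other inducible genes, Fosb, Egr2, Ier2, Dusp1, Btg2 and Npas4, chose 11 of the 12 high and 10 of the 12 low libraries again.

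No library measure passed a test between the sets over the 4 groups, although the mitochondrial share was apart in females. The totals of the deposited columns ran from 13651830 to 14456195 over the 24 libraries, and the number of genes above 0 ran from 20191 to 20679 in the high and from 19708 to 20846 in the low libraries. The share of exon values in last exons, pooled over 17252 genes with 4 or more exons, rises as RNA is degraded in poly(A) libraries. This share was 52.4% ± 3.10 (SD, n = 12) in the high and 53.6% ± 2.43 in the low libraries, a difference of -1.20 percentage points (exact permutation within groups, p = 0.33, adjusted over 4 measures 0.45). The mitochondrial share was 4.23% ± 0.94 against 4.73% ± 0.93 (exact permutation, p = 0.20, adjusted 0.45). The 2 remaining measures, the total and the genes above 0, had adjusted p of 0.45 and 0.69 in the same exact test.

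Of 15463 other genes tested, 23 were higher in the high libraries (0.149% of those tested) and 1 was lower (0.00647%) at an adjusted p under 0.05 in limma's model on log2(value + 7) with the 4 groups as blocks. They include transcription factors, antiproliferative genes and a phosphatase that stimuli induce within minutes: 13 of the 24 called genes stand on the lists of inducible and feedback genes, and 11 do not. The lists were made with earlier results of these data known, so this overlap and the counts per list below are a description. The rises ran from 0.29 for Coq10b to 1.76 for Atf3. Over all tested genes the median difference was 0.00 (0.00226) and 50.9% were positive, a balance that scaling to nearly equal totals favours. At an unadjusted p under 0.05 there were 950 genes. A gene whose messenger RNA lies higher here may have more of it per cell or be expressed in more cells, which cannot be told apart in RNA pooled over the cells of a sample.

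**Figure D2:**
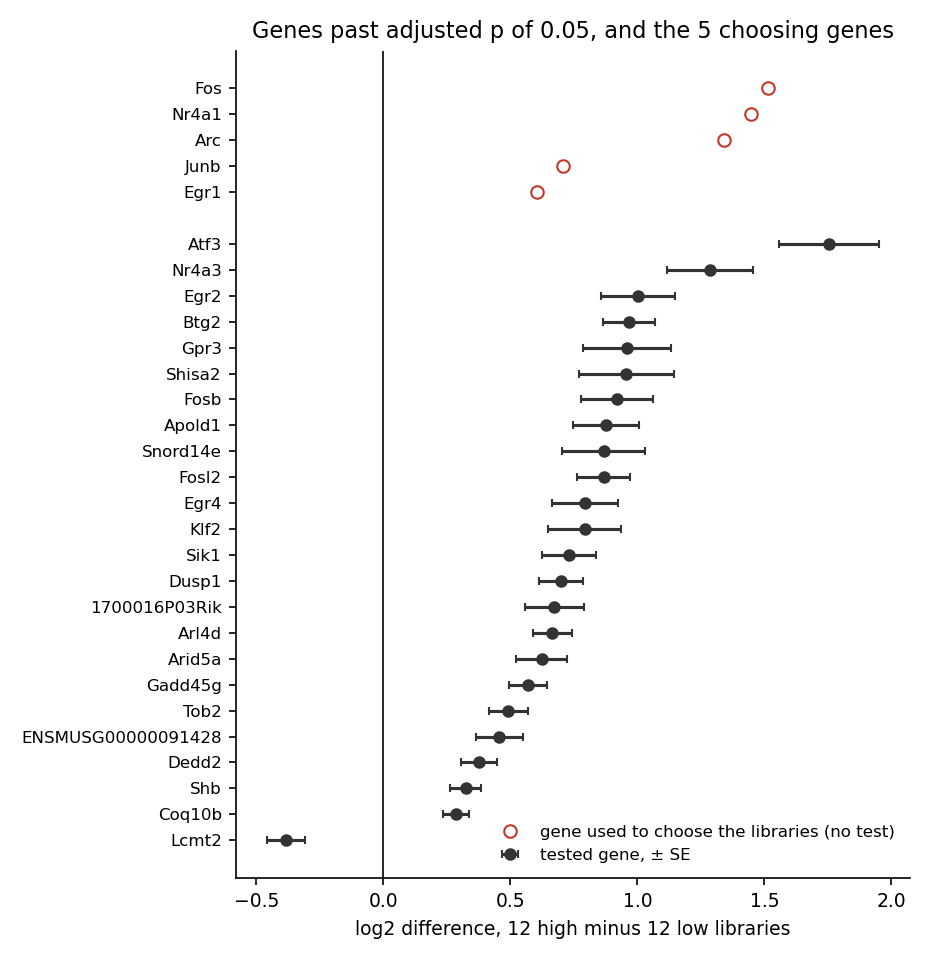
Log2 difference between 12 high and 12 low libraries (x axis) for the 24 called genes (filled points, ± SE) and, as a description, the 5 genes that chose the libraries (open points, no test). The 23 higher genes range from Coq10b at 0.29 to Atf3 at 1.76, and Lcmt2 at -0.38 is the only lower one.

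Transcription factors were the list with the most called genes. Of 29 inducible transcription factors tested beside the choosing genes, 26 lay higher in the high libraries and 3 lower, 7 rose and none fell, and their median difference was 0.32. Over all tested genes 50.9% lay higher and 0.149% were called higher. Atf3 (mm9 chromosome 1, start 192994175), a stress-inducible member of the ATF and CREB family, had the largest rise of all tested genes. Its values ran from 23 to 83 with a median of 59.5 in the high libraries and from 3 to 26 with a median of 10.5 in the low ones. Within each group all 3 high libraries lay above all 3 low ones, although a high library of High males (23) lay below the highest low libraries elsewhere (26). The difference was 1.76 ± 0.20 (SE) on the log2 scale, a fold of 3.38 (limma, adjusted p = 3.82e-05). These are low values, so the pseudocount of 7 shrinks this fold.

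Nr4a3 (mm9 chromosome 4, start 48058025), the orphan nuclear receptor NOR-1 and a close relative of Nr4a1, rose from 352 ± 184 to 799 ± 139 (SD, n = 12 each). Its values ran from 538 to 1065 in the high libraries and from 169 to 856 in the low ones. The sets overlapped only through 1 low library of High females at 856, which lay above 2 of the high libraries of its own group, while in the other groups all high libraries lay above all low ones. The difference was 1.29 ± 0.17, a fold of 2.44 (limma, adjusted p = 0.000201).

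Further members of the Egr and Fos families rose. Egr2, a zinc finger factor with the CArG box printed above, ran from 79 to 167 in the high libraries and from 39 to 101 in the low ones, with a difference of 1.00 ± 0.15 (adjusted p = 0.000842). Egr4, of the same family, ran from 353 to 643 against 149 to 406 and rose by 0.79 ± 0.13 (adjusted p = 0.0026). Fosb, whose truncated product ΔFosB accumulates in the striatum on repeated stimulation, ran from 249 to 424 against 94 to 322 and rose by 0.92 ± 0.14 (adjusted p = 0.00164). Fosl2, which encodes the AP-1 subunit Fra-2, ran from 812 to 1154 against 355 to 862 and rose by 0.87 ± 0.10 (adjusted p = 5.35e-05). The ranges of these 4 genes overlapped between the sets over all groups. Within groups, the high libraries lay above the low ones in all 4 for Egr4 and Fosl2 and in 3 for Egr2 and Fosb.

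Klf2, a Krüppel-like factor best known from endothelium under flow, ran from 75 to 173 against 34 to 99 and rose by 0.79 ± 0.14 (limma, adjusted p = 0.0116). It was apart in only 2 of the 4 groups.

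Relatives of these factors differed in whether they passed the test. Npas4, a neuronal factor induced by calcium entry, had values of 199 to 962 with a median of 459.5 in the high libraries and of 79 to 429 with a median of 229 in the low ones, a difference of 1.01 ± 0.27 that was not called (adjusted p = 0.256). Its difference was 1.85 in High females and -0.02 in High males, where the high libraries averaged 284 ± 105 and the low ones 286 ± 89.6 (SD, n = 3 each). Egr3, the remaining Egr family member, was at 80.0 ± 61.3 against 53.2 ± 33.8 and was not called (adjusted p = 0.907). Jun was at 415 ± 75.0 against 377 ± 48.4 (adjusted p = 0.943) and Jund at 1763 ± 173 against 1681 ± 233 (adjusted p = 0.988), so neither Jun nor Jund passed while Fosb and Fosl2 did. The test of one gene's difference against that of another was not run.

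Srf, which encodes serum response factor itself, was at 1007 ± 104 against 809 ± 112, a difference of 0.32 ± 0.07 that fell short of the threshold (adjusted p = 0.0866). Klf4, at 62.8 ± 16.4 against 37.1 ± 12.5, fell short in the same way (0.68 ± 0.15, adjusted p = 0.0757). Ier2 was at 38.8 ± 11.9 against 34.3 ± 6.47 (adjusted p = 0.988).

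Among 29 tested genes for inducible effectors, the proteins that act beside transcription, 27 lay higher, 5 rose and none fell, with a median difference of 0.23. The shares over all tested genes were 50.9% higher in sign and 0.149% called higher. Btg2 (mm9 chromosome 1, start 135971747), an antiproliferative protein that recruits the deadenylase complex to messenger RNA, had the smallest p of all genes. Its values ran from 116 to 243 with a median of 161.5 in the high libraries and from 70 to 101 with a median of 82.0 in the low ones. No high library lay below any low library. The difference was 0.97 ± 0.10, a fold of 1.96 (limma, adjusted p = 3.2e-05).

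Arl4d, a small GTPase of the ARF family, was likewise apart in all 24 libraries, at 288 to 381 in the high and 164 to 282 in the low ones (0.67 ± 0.08, adjusted p = 3.97e-05). Sik1, a salt-inducible kinase that phosphorylates the CREB coactivators and holds them outside the nucleus, ran from 246 to 388 with a median of 307 against 125 to 243 with a median of 180, also with no overlap (0.73 ± 0.11, adjusted p = 0.000964). Gadd45g, a growth-arrest and DNA-damage protein that activates stress kinases, ran from 233 to 334 against 148 to 239, with overlap between groups and none within them (0.57 ± 0.07, adjusted p = 0.000201). Coq10b, which encodes a mitochondrial coenzyme Q binding protein, had the smallest called difference, 0.29 ± 0.05 (adjusted p = 0.00793). Its values were 429 ± 36.5 against 350 ± 30.6, and the high libraries lay above the low ones in each of the 4 groups.

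Other effectors were not called. Ptgs2, the inducible cyclooxygenase, was at 45.6 ± 8.48 against 26.3 ± 10.9 (0.72 ± 0.17, adjusted p = 0.102). Ccn1, a secreted matrix protein, was at 56.5 ± 17.9 against 35.2 ± 10.8 (adjusted p = 0.244). Bdnf, Nrn1 and Inhba were below the filter on low values, with means of 7.67, 20.3 and 8.83 in the high and 12.3, 48.7 and 5.75 in the low libraries.

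Homer1 produces a short activity-induced form that ends early beside the long constitutive one, and Fosb a truncated form, so their exons were read separately, as a description. The exon of Homer1 that starts at 94125895 on mm9 chromosome 13 was at 732 ± 143 in the high and 600 ± 178 in the low libraries (SD, n = 12 each). The next one, which starts at 94136198, was at 116 ± 27.8 against 74.4 ± 23.7. The last exon, at 94171996, was at 1050 ± 85.8 against 1010 ± 118, so the ratio of the set means was 1.55 for the middle of these exons and 1.04 for the last. The other listed exons of Homer1 had means of 62.8 or less. Those before 94125895 had ratios from 1.25 to 1.36, and those between 94136198 and 94171996 had ratios from 1.04 to 1.21. Over the whole gene Homer1 was at 2169 ± 303 against 1906 ± 358 and was not called (0.20 ± 0.09, adjusted p = 0.794). Nearly all of the Fosb value lay in the exon starting at 19888070 on chromosome 7, at 314 ± 47.8 against 173 ± 56.3, and the other 3 exons listed were at 12.0 or less.

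Genes of feedback on the MAP kinase pathway mostly missed the test but shared a sign. Of 13 phosphatases and inhibitors tested, 13 lay higher, 1 rose and none fell, with a median difference of 0.18. Beside them, 50.9% of all tested genes lay higher and 0.149% were called higher. Dusp1 (mm9 chromosome 17, start 26642535), a nuclear phosphatase that switches off MAP kinases, ran from 256 to 464 with a median of 334 in the high libraries and from 157 to 251 with a median of 219 in the low ones. All high libraries lay above all low ones, and the difference was 0.70 ± 0.09, a fold of 1.62 (limma, adjusted p = 0.000118). Dusp14 was at 928 ± 89.6 against 730 ± 118 (0.36 ± 0.08, adjusted p = 0.0754), Spry4 at 92.6 ± 15.7 against 68.4 ± 17.2 (adjusted p = 0.34) and Dusp6, the cytoplasmic phosphatase of ERK, at 374 ± 80.4 against 294 ± 75.3 (adjusted p = 0.621), and none of these 3 was called.

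The kinases and factors upstream were not called. With 0.149% of all tested genes called higher, a list of this size would rarely hold a called gene. Of 33 genes of the MAP kinase, CREB and SRF pathway, 23 lay higher and 10 lower with a median of 0.02, and 1 had an unadjusted p under 0.05. That gene was Rps6ka3, the kinase RSK2, at 1424 ± 108 against 1302 ± 126 (adjusted p = 0.675).

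**Figure D3:**
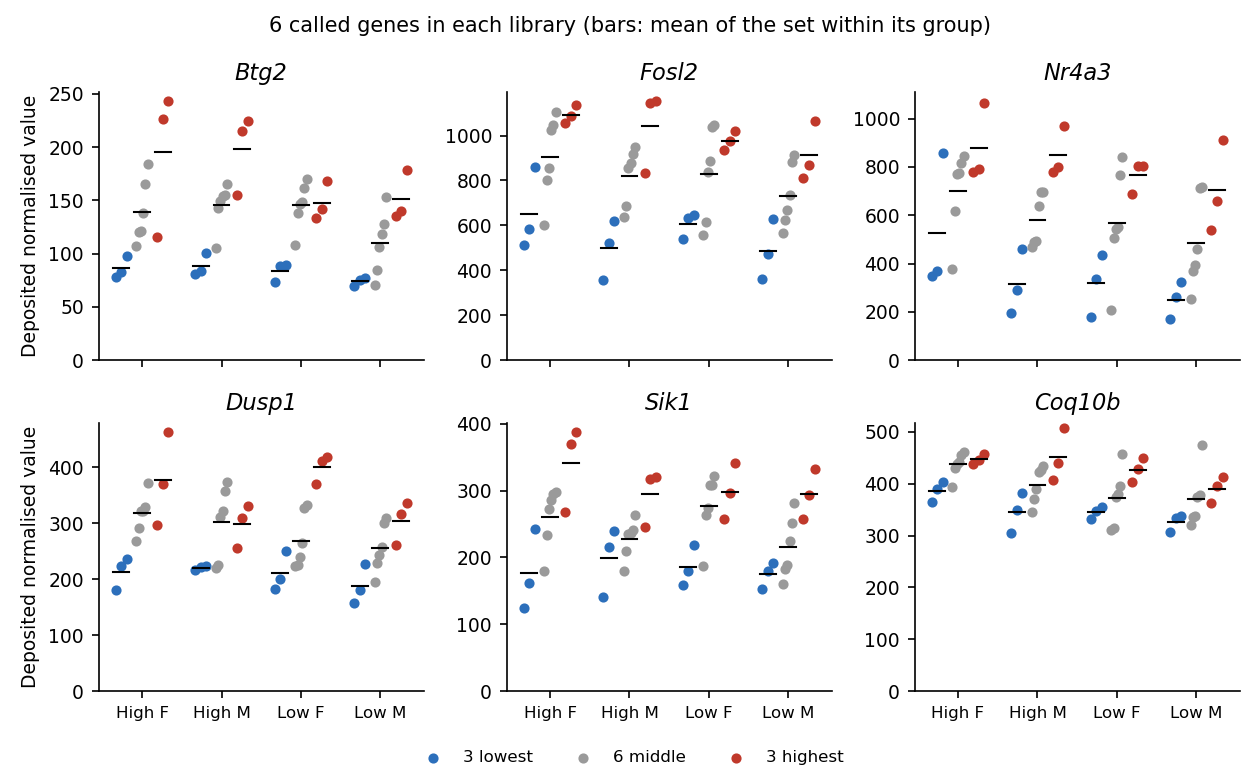
Deposited normalised value (y axes, from 0) of 6 called genes in each library, by line and gender (x axis), with blue points for the 3 lowest, grey for the 6 middle and red for the 3 highest libraries of a group by score. Black bars are means of 3, 6 and 3 libraries. All red points lie above all blue points of the same group for Btg2, Fosl2, Dusp1, Sik1 and Coq10b, and 1 blue point of Nr4a3 in High females (856) lies among the red ones.

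The 11 called genes outside these lists were found by the test over all genes. With the mean of 5 blood markers in the model Apold1, Arid5a and Tob2 stayed called, and the other 8 kept their sign and missed the threshold. Gpr3 (mm9 chromosome 4, start 132765255) encodes a receptor that raises cyclic AMP without a ligand. Its values ran from 61 to 195 with a median of 138 in the high and from 30 to 118 with a median of 59.0 in the low libraries (0.96 ± 0.17, adjusted p = 0.0096). Shisa2, from a family of membrane proteins that retain receptors in the endoplasmic reticulum, ran from 83 to 224 against 33 to 153 (0.96 ± 0.19, adjusted p = 0.0218). Both genes overlapped between the sets, and both were apart in 2 of the 4 groups.

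Apold1, an early response gene of vascular endothelium, ran from 43 to 90 against 19 to 58 (0.88 ± 0.13, adjusted p = 0.000981). Arid5a, a protein that binds and stabilises messenger RNAs, was at 92.7 ± 10.5 against 58.6 ± 14.3 (0.62 ± 0.10, adjusted p = 0.0026). Tob2, of the same antiproliferative family as Btg2, ran from 161 to 219 against 103 to 156 with no overlap (0.49 ± 0.08, adjusted p = 0.00173). The transcript 1700016P03Rik, which hosts the microRNAs miR-212 and miR-132, ran from 187 to 425 against 114 to 234 (0.67 ± 0.12, adjusted p = 0.00611), and the microRNAs themselves were not measured here.

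Shb, an adaptor of receptor tyrosine kinases, was at 409 ± 33.1 against 326 ± 29.4 (0.32 ± 0.06, adjusted p = 0.0121). Dedd2, a death effector domain protein, was at 248 ± 16.9 against 191 ± 27.4 (0.38 ± 0.07, adjusted p = 0.0156). Snord14e, a small nucleolar RNA, was at 21.6 ± 6.53 against 8.83 ± 5.01 (0.87 ± 0.16, adjusted p = 0.0153). Its values ran from 6 to 27 against 3 to 18, so the sets overlapped, and the low ones lay near the pseudocount of 7. It differed by 1.00 in High females, 0.34 in High males, 0.83 in Low females and 1.30 in Low males. It lies in an intron of the chaperone gene Hspa8, which was at 11238 ± 1336 against 10213 ± 1353 and was not called (adjusted p = 0.885), and reads of the 2 genes cannot be told apart in these values. The remaining higher gene, ENSMUSG00000091428, carries no symbol and was at 235 ± 35.9 against 169 ± 26.5 (0.46 ± 0.09, adjusted p = 0.0378). The 1 lower gene was Lcmt2 (mm9 chromosome 2, start 120954043), which encodes a methyltransferase that modifies transfer RNA. It ran from 78 to 112 in the high and from 92 to 137 in the low libraries and fell by 0.38 ± 0.07 (limma, adjusted p = 0.0207).

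For 10 of the 15463 genes (0.0647%) all 3 high libraries lay above all 3 low ones in each of the 4 groups: Btg2, Atf3, Arl4d, Fosl2, Dusp1, Gadd45g, Sik1, Tob2, Egr4 and Coq10b. All 10 are among the called genes. Leaving out each of the 24 libraries in turn left between 21 and 30 genes called. With each library left out, 21 of the 24 genes stayed called in all 24 fits, and the exceptions were ENSMUSG00000091428, called in 6 of them, Shisa2 in 18 and Lcmt2 in 19.

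Promoter windows matched 19 of the 23 higher genes, 3 of the 5 choosing genes and 11115 of the tested genes. The full form TGACGTCA, searched on both strands, stood in the 250 bases before a start site of 3 of the 19 (15.8%) and of 333 of all tested genes with a window (3.0%). Those 3 are Btg2, Dusp1 and Arl4d, and their matches are printed above. The short form TGACG, on either strand and including those inside a full form, stood in 13 of the 19 (68.4%) against 3306 of all (29.7%). The CArG box stood in 1 of the 19, Egr2 (5.26%), against 161 of all (1.45%). Fos, Junb and Nr4a1 each held the short form and neither of the other motifs in this window. These shares are a description of letters in a short window, with no test, and a match is not a bound site.

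Lists of other inducible responses held no called gene. Over all tested genes 0.149% were called higher and 0.00647% lower, so lists of this size would rarely hold one. Of 19 heat shock and chaperone genes 18 lay higher, with a median of 0.06 and 5 at an unadjusted p under 0.05. In the 24 middle libraries 6 of these 19 had a positive slope on the score, with a median of -0.04 log2 per unit of score. Of all tested genes 42.8% had a positive slope there. Stip1, a co-chaperone of the HSP70 and HSP90 proteins, was at 3399 ± 186 against 3093 ± 264 (adjusted p = 0.53). The stress-inducible chaperones Hspa1a and Hspa1b, named after their values were seen, had differences of 0.13 and -0.04. Of 15 endoplasmic reticulum stress genes 12 lay higher with a median of 0.07, while 3 of the 15 had a positive slope in the middle libraries, with a median of -0.09. Of 16 glucocorticoid-responsive genes 6 lay higher and 10 lower with a median of -0.04, and Nfkbia (0.26, adjusted p = 0.533) and Hif3a (-0.52, adjusted p = 0.656) had the smallest p among them.

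Of 17 circadian clock and output genes 11 lay higher, with a median of 0.01. Per1, a clock gene with a cyclic AMP response element that stimuli also induce, was at 1901 ± 345 against 1457 ± 232 and was not called (0.38 ± 0.10, adjusted p = 0.213). Per2 was at 803 ± 190 against 656 ± 108 (adjusted p = 0.621).

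Among the genes that define striatal neurons, no list held a called gene, which is near the share of 0.149% called higher over all tested genes. Of 14 tested neuropeptides and granins 10 lay higher with a median of 0.05. Tac1, the precursor of substance P in direct-pathway neurons, was at 14576 ± 1517 against 13065 ± 1781 (0.16 ± 0.07, adjusted p = 0.741), and Pdyn, the dynorphin precursor, at 8452 ± 1355 against 7533 ± 1573 (adjusted p = 0.885). Of 25 glutamate receptor and scaffold genes 13 lay higher and 12 lower with a median of 0.02, and Gria2 had the smallest p (-0.14 ± 0.06, adjusted p = 0.78). Of 19 striatal cyclic AMP and G-protein genes 14 lay higher with a median of 0.04. The medians of the 8 direct-pathway, 8 indirect-pathway and 14 shared spiny neuron markers were 0.07, -0.01 and 0.04. These spiny neuron markers were abundant in every library, as the labelled tissue requires: the shared markers summed to between 44100 and 71148 units.

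**Figure D4:**
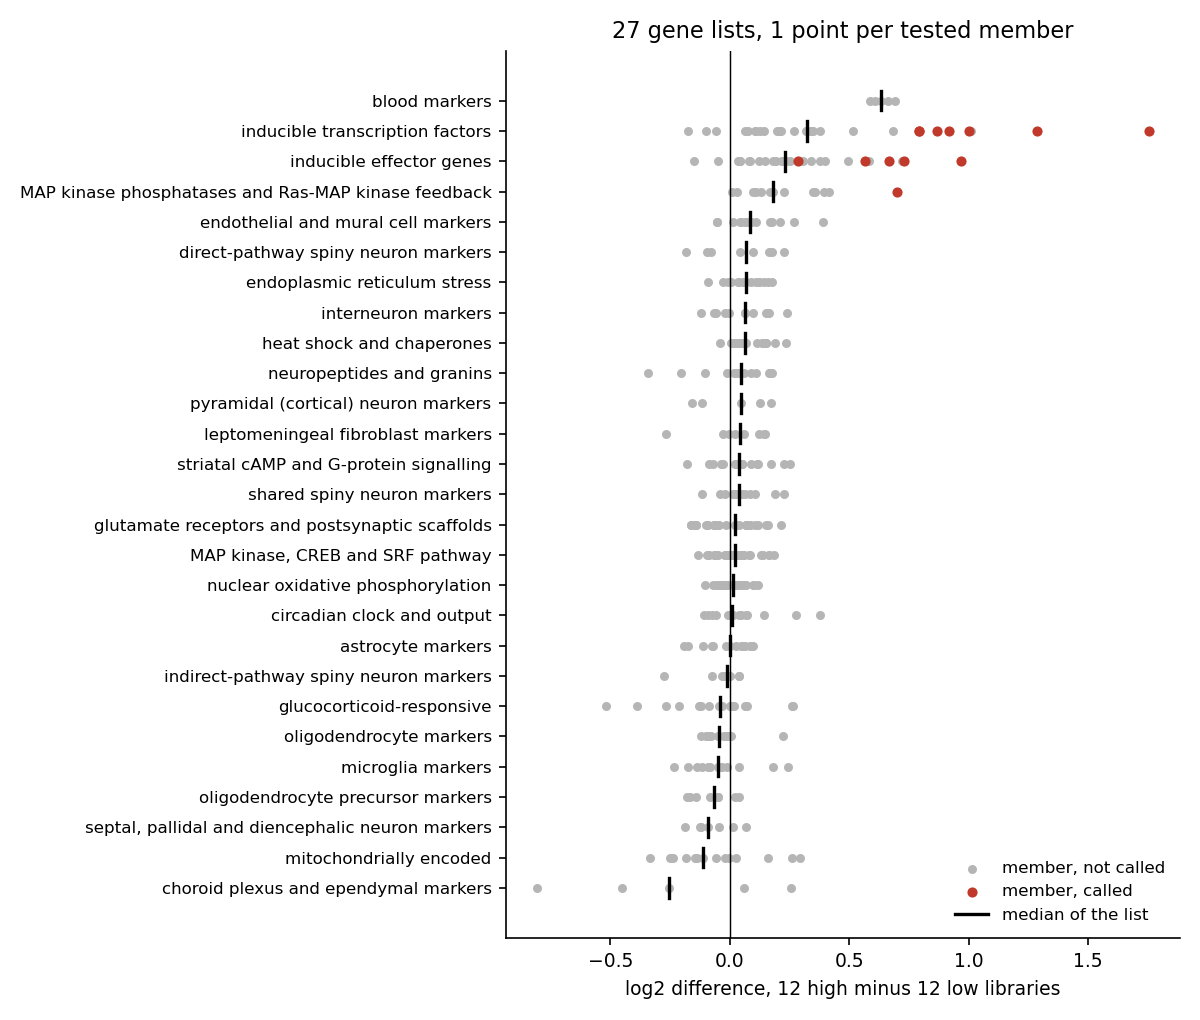
Log2 difference between 12 high and 12 low libraries (x axis) of each tested member of 27 gene lists (y axis), with called members in red, others in grey and a black bar at the median of the list. Called members stand in 3 lists, and the blood list has the highest median, 0.63, with none of its 5 members called.

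Markers of other cells were compared as whole lists. The 5 blood markers, 4 globins and the erythroid enzyme Alas2, all lay higher in the high libraries, with a median of 0.63 and 4 at an unadjusted p under 0.05, and none was called (adjusted p from 0.46 to 0.966). Their summed level ran from 367 to 1743 with a median of 650.5 in the high and from 223 to 737 with a median of 456.5 in the low libraries, so the sets overlapped, and no marker was at 0 throughout. Of 16 endothelial and mural markers 14 lay higher with a median of 0.09, and their sum ran from 5393 to 6990 against 5601 to 6751. With the mean of the blood markers in the model, 15 of the 24 genes stayed called and all 24 kept their sign. The 9 that did not stay called were Gpr3, Klf2, Shisa2, 1700016P03Rik, Shb, Snord14e, Dedd2, Lcmt2 and ENSMUSG00000091428. With the endothelial mean instead, 15 also stayed called, Apold1 and 1700016P03Rik among them. Coq10b was lost there (0.26 ± 0.06, limma, adjusted p = 0.0754), as was Klf2 (0.74 ± 0.16, adjusted p = 0.082), beside Gpr3, Shisa2, Shb, Snord14e, Dedd2, Lcmt2 and ENSMUSG00000091428. With the mean of the heat shock genes 17 stayed called, and the 7 lost were Shisa2, Klf2, Lcmt2, Shb, Snord14e, Dedd2 and ENSMUSG00000091428. These 7 genes were lost with each of the 3 covariates. With the blood mean the difference was 1.00 for Shisa2 (0.96 without it), 0.78 for Klf2 (0.79), 0.31 for Shb (0.32), 0.79 for Snord14e (0.87), 0.39 for Dedd2 (0.38), 0.42 for ENSMUSG00000091428 (0.46) and -0.30 for Lcmt2 (-0.38).

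Markers of cortical pyramidal neurons were high in a few libraries of both sets. The summed level of 12 pyramidal neuron markers ran from 742 to 3197 with a median of 892.5 in the high and from 739 to 6298 with a median of 849.5 in the low libraries, and 7 of the 12 were below the filter. Slc17a7, the vesicular glutamate transporter of cortex, ran from 5 to 1626 against 5 to 3886 with medians of 17.5 and 16.0. With the mean of the 5 tested pyramidal markers in the model all 24 genes stayed called. Of 15 oligodendrocyte markers 13 lay lower in the high libraries with a median of -0.05, and their sum ran from 13656 to 26127 against 9710 to 26064. With the oligodendrocyte mean in the model 23 of the 24 stayed called, and with the share of the last exon all 24. Lists of septal, choroid plexus, meningeal, astrocyte, oligodendrocyte precursor, interneuron and microglial markers held no called gene, with medians from -0.26 to 0.07. The share called higher over all tested genes was 0.149%, so lists of this size would usually hold none. Of 15 mitochondrially encoded genes 11 lay lower with a median of -0.11, and with the mitochondrial share in the model 22 of the 24 genes stayed called. This median covers unlike groups. The 2 members with the smallest p were mt-Nd6 and mt-Nd5. In High females mt-Nd6 differed by -0.62 and in Low females by -0.70, but by 0.18 in High and -0.20 in Low males. For mt-Nd5 these were -0.62, -0.80, 0.55 and -0.13. Of 29 nuclear genes of oxidative phosphorylation 16 lay higher and 13 lower with a median of 0.01.

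The 24 middle libraries gave a look at the same genes in libraries that the sets did not use. In these, each gene was fitted against the score with the groups as blocks, and a slope is a log2 change per unit of score. Of the 23 higher genes 22 had a positive slope, against 42.8% of all tested genes, and 18 had an unadjusted p under 0.05, against 3.05% of all tested genes. Only Sik1 was called among all 15463 genes (0.00647%), with a slope of 0.80 ± 0.11 (limma, adjusted p = 0.00299). Egr2 followed with 1.28 ± 0.24 (adjusted p = 0.0963), Egr4 with 0.70 ± 0.13 (adjusted p = 0.0963) and Fosl2 with 0.78 ± 0.16 (adjusted p = 0.175). Arl4d, which was apart in the outer sets, had a slope of 0.13 ± 0.14, and Shb had a slope of -0.21 ± 0.16, opposite in sign to its difference between the sets. Lcmt2 was again negative, at -0.31 ± 0.15.

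**Figure D5:**
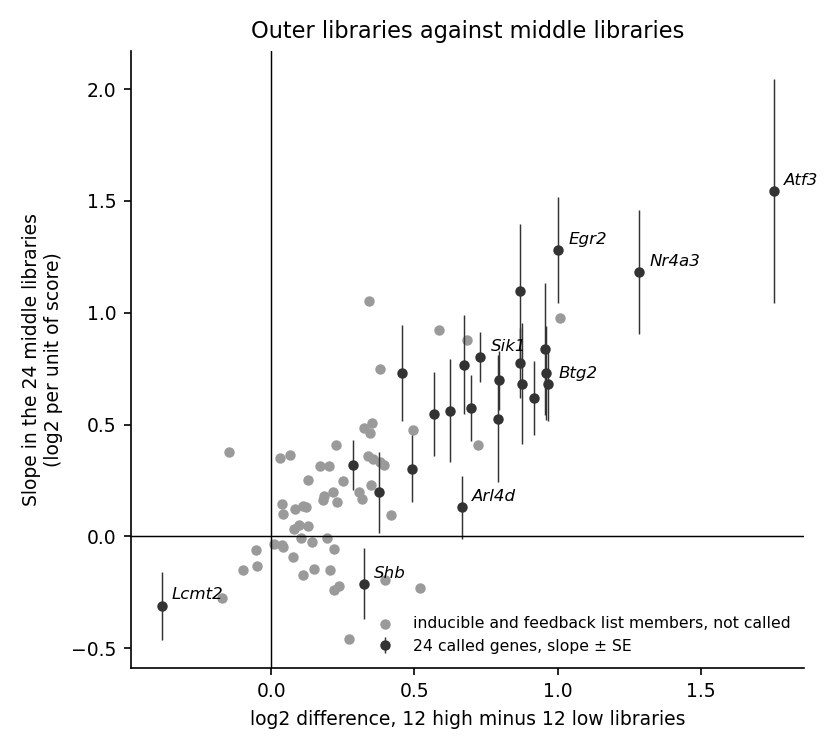
Slope on the score in the 24 middle libraries (y axis, log2 per unit of score) against the difference between 12 high and 12 low libraries (x axis, log2). Black points with SE bars are the 24 called genes and grey points are members of the inducible and feedback lists that were not called. Of the called genes only Shb has opposite signs on the axes.

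Fitted over all 48 libraries, the slope on the score was called for 75 genes that rose (0.485% of those tested) and 34 that fell (0.22%). They include 23 of the 24 genes called between the sets, and this fit reuses the libraries of the sets. Members of the lists that passed here and not between the sets include Npas4 with a slope of 0.96 ± 0.18 (limma, adjusted p = 0.00124), Klf4 with 0.67 ± 0.10 (2.84e-05), Srf with 0.28 ± 0.05 (0.000148), Ptgs2 with 0.63 ± 0.11 (0.000389) and Per1 with 0.35 ± 0.06 (0.000344). In all, 13 of the 29 inducible transcription factors, 7 of the 29 effectors and 5 of the 13 feedback genes rose in this fit and none of them fell.

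The lines and genders were compared for the size of the difference itself. No gene was called for a difference between lines in limma's interaction test, with 878 at an unadjusted p under 0.05, and none for a difference between genders, with 2515. A uniform spread of p would put 773 genes under 0.05, so the count for gender is well above that number although no single gene passed the adjustment, and genes are not independent. Among the called genes Gpr3 and Shisa2 had an unadjusted p under 0.05 for the difference between lines. Gpr3 differed by 1.31 in Low females, 1.59 in Low males and 0.90 in High females, and by 0.05 in High males, where the high libraries were at 73.3 ± 15.0 and the low ones at 70.3 ± 9.29 (SD, n = 3 each). The High effect minus the Low effect was -0.98 ± 0.29 for Gpr3 (unadjusted p = 0.00243, adjusted p = 0.813) and -0.91 ± 0.33 for Shisa2 (adjusted p = 0.813). Atf3 differed by 1.38 in High females, 1.63 in High males, 1.39 in Low females and 2.63 in Low males, and Btg2 by 1.05, 1.09, 0.77 and 0.95 in the same order.

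All 24 genes kept their sign when only 1 line or 1 gender entered the fit. With 12 libraries the Low line called 11 genes, 10 of them among the 24, and the High line called none, with 582 genes at an unadjusted p under 0.05. Females alone and males alone called 3 each, with 3216 and 716 genes at an unadjusted p under 0.05. Each of these fits holds only 6 high and 6 low libraries, and since the interaction test called no gene, the lines are not shown to differ. In the High line alone the difference was 1.07 for Btg2 (limma, adjusted p = 0.231), 1.502 for Atf3 (0.231) and 0.93 for Fosl2 (0.231), beside 0.97, 1.76 and 0.87 over both lines.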

How the data were processed

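The unit of the deposited gene and exon tables is a score, since the values are named as normalised counts, are whole numbers and give nearly equal totals in all libraries. CASAVA, FastQC, STAR (2.4.0), R (3.0.2), edgeR (3.4.2) and build mm9 are named, per the submitters' processing notes. Counter, strand setting and scaling method are not stated there, so overlapping genes cannot be told apart. Depth before scaling is unknown, so no counting interval is given.

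Genes with 14 units or more in at least 12 of 48 libraries were kept (15468 of 37620). The test was limma (3.58.1, R 4.3.3) on log2(value + 7) with a mean-variance trend and the 4 groups as blocks. Benjamini-Hochberg adjustment ran over 15463 genes, without the 5 choosing genes. Folds on this scale understate the change of weak genes.

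The choice of libraries and the 28 gene lists (435 of 444 symbols matched) were made with earlier results of these data known. Genes were named by rule: called genes with a mean of 70 units or more, 12 per direction by size, and per list the called members or the 2 with the smallest p; the remaining called genes and inducible list members are given by value. Gene tests were tested on simulated data. The planned exon usage test made too many false calls there, so its calls are not reported. Covariates for blood, endothelial, heat shock and mitochondrial genes were added after seeing the data. Symbols and chromosomes are from GENCODE M21. Promoters are RefSeq windows on GRCm38.p6, and exon positions are those deposited on mm9.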

Additional observations from a re-analysis of the deposited data

How the results depend on the processing

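The count of 24 genes lay between 21 and 30 when 1 library was left out. It lay within 1.5 times of 24 under other pseudocounts, filters, scalings, library weights, 2 or 6 libraries per set and group, and scores without Egr1, Arc or Nr4a1. It was 48 with 4 libraries per set and group, 62 with the score without Fos, 44 without Junb, 109 for the slope over 48 libraries and 1 for the slope over the 24 middle ones. It was 12 without Low females, 12 without Low males, 0 in the High line, 11 in the Low line, 3 in females and 3 in males. With endothelial markers as a covariate it was 15, and with blood markers 16. Library weights, which down-weight deviating libraries, called 36. The cause of these changes was not tested, except that fits to 1 line or gender hold fewer libraries.

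Single genes kept their direction in all fits except Shb, at -0.21 in the middle libraries. Of 1409 values for single genes, 1190 stayed on their side of the threshold and 218 no longer passed. The median over all genes moved by under 0.1 under each scaling. The interaction, score and library measure results stayed on their side of the threshold in the alternatives run. The exon usage alternatives were not run to a reported value. No paired analysis was possible because the labels number no mice across groups. Values near 7 units carry the pseudocount, and Atf3, Snord14e and Apold1 are the weakest called genes.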

Other observations

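Over all 48 libraries, genes outside every list also followed the score. The examples are the 2 with the smallest p in each direction among genes outside the lists and not called between the sets, named after their values were seen. Midn, which encodes the nuclear protein midnolin that delivers immediate early proteins to the proteasome, had a slope of 0.38 ± 0.06 (SE) log2 per unit of score (limma, adjusted p = 5.4e-05) and was at 469 ± 80.3 in the 12 high and 356 ± 51.9 in the 12 low libraries (SD). Adamts1, a secreted metalloprotease that cleaves matrix proteoglycans, had a slope of 0.63 ± 0.10 (adjusted p = 7.04e-05) and was at 54.8 ± 17.0 against 31.2 ± 10.6. Neither was called between the sets (adjusted p = 0.129 and 0.0711), and both had positive slopes in the middle libraries, 0.40 ± 0.14 and 0.60 ± 0.24.

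Among the 34 genes that fell with the score over 48 libraries, Tmem138, which encodes a protein of the primary cilium, had a slope of -0.24 ± 0.05 (limma, adjusted p = 0.0017) and was at 164 ± 15.5 in the high and 202 ± 21.5 in the low libraries. Slc36a4, an amino acid transporter, had a slope of -0.35 ± 0.07 (adjusted p = 0.0021) and was at 785 ± 157 against 1004 ± 144. Neither was called between the sets (adjusted p = 0.102 and 0.34). Lcmt2 was the 1 gene lower in both tests.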
